A study of Mus musculus with 6 samples.

Results

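The clustered, replication-dependent histone genes were examined in ATAC-seq peak lists of mouse CD4 T cells. The genes were taken by name from the RefSeq table of mouse assembly GRCm38.p6, as every protein-coding gene of the clustered histone families (symbols H1f1 to H1f6 and those beginning H2ac, H2bc, H3c or H4c). This gave 63 of the 21900 protein-coding genes, namely 6 genes for H1, 17 for H2A, 16 for H2B, 12 for H3 and 12 for H4. Overlapping peaks of the 3 lists, with 1 bp in common as the minimum, were joined into regions, and those within 2 kb of these gene bodies were kept. They number 77 of 81315. The regions were chosen by the peak calls themselves, so their presence and the number of genes with a peak are a description, and no test is attached to them.

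ATAC-seq marks DNA that the Tn5 transposase can reach, and the labels give 2 libraries for each of 3 conditions, described as independent biological replicates. All cells came from C57BL/6 mice, with no allele named in the labels. Naive CD4+ cells were untreated, and Th17 cells were such cells kept for 48 h or 72 h with plate-bound anti-CD3ε at 0.25 μg/mL, anti-CD28 at 1 μg/mL, TGF-β at 0.1 ng/mL and IL-6 at 20 ng/mL. The study made 1 peak list per condition, and the sources used here do not say whether it pools both libraries, so no difference between conditions has a replicate check. Nor do they give the number of animals behind a library. The Th17 cells differ from the naive cells in activation, cytokines and time in culture at once, and these cannot be told apart.

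Replication-dependent histone genes encode the bulk of the core histones H2A, H2B, H3 and H4, which form the nucleosome, and the linker histone H1, which binds the DNA between nucleosomes. Most of these genes are short and without introns, stand in clusters, and are transcribed mainly in S phase, when newly made DNA is packed. Their messages usually end in a stem-loop bound by SLBP instead of a poly(A) tail, and the factor NPAT, acting with cyclin E and CDK2, drives their transcription. Naive T cells are quiescent, and stimulation through CD3 and CD28 brings them into the cell cycle.

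The lists held 53259 peaks over 19.8 Mb in naive cells, 40624 peaks over 12.6 Mb at 48 h and 53926 peaks over 17.7 Mb at 72 h. With no read counts in the lists, depth is unknown. Within 2 kb, the naive list held 0 regions at the Th17 genes Il17a, Il17f and Ccr6, the 48 h list 1, 0 and 2, and the 72 h list 2, 1 and 3, while Il23r had 8, 4 and 6. All 4 T cell genes (Cd3e, Cd3g, Cd4, Lck) had peaks in each list. Among markers of other cells, the B cell genes Cd79a and Pax5 had 2, 1 and 1 and 1, 3 and 3 regions, and Ms4a1 was at 0 in each list. Of 4 myeloid genes, Itgam had 7, 1 and 1 regions, with a start peak in naive cells only, and Csf1r, Lyz2 and Adgre1 were at 0. Of 3 erythroid genes 2 had a peak in each list and Hbb-bs was at 0, and of the CD8 and NK cell genes 2, 2 and 1 of 4 had a peak, with Ncr1 at 0. The part of other cells in the results was not tested. In these bulk samples, more cells with an open site and a site more open in each cell cannot be told apart.

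The promoters of the 6 linker histone genes are shown first because the peaks over their gene ends separate 4 members from the other 2. Each line gives the 150 bases before the RefSeq gene start, 5′ to 3′ on the strand of the gene, from the RefSeq promoter table of GRCm38.p6. Capitals mark the 4 motifs searched on both strands, so a motif on the other strand appears as its reverse complement. The motifs are CCAAT (the CCAAT box), TATAAA (the TATA box), ATTTGCAT (the octamer known from H2B promoters) and AAACACA (an element known from H1 promoters). The coordinates are chr13:23763518-23763667 (+ strand) for H1f1, chr13:23738657-23738806 (+ strand) for H1f2, chr13:23554882-23555031 (+ strand) for H1f3, chr13:23622559-23622708 (- strand) for H1f4, chr13:21780626-21780775 (- strand) for H1f5 and chr13:23695661-23695810 (+ strand) for H1f6.
H1f1: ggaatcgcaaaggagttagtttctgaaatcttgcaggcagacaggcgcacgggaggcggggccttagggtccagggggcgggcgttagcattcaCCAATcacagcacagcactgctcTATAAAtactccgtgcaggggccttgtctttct
H1f2: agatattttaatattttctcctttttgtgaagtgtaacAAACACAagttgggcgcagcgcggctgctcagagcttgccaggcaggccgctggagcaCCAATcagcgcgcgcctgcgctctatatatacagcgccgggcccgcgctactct
H1f3: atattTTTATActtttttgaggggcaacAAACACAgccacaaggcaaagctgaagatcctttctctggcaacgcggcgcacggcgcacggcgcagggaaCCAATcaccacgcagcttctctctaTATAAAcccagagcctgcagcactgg
H1f4: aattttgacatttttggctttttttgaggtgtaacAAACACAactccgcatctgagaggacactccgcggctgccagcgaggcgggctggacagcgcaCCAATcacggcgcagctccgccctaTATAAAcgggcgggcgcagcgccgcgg
H1f5: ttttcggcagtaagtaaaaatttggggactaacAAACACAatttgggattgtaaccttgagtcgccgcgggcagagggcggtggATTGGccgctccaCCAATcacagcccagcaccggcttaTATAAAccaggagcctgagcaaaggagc
H1f6: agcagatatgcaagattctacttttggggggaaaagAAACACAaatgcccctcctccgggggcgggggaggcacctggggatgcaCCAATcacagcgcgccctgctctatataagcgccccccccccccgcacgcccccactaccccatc

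AAACACA stood 112 to 122 bases before the start in H1f2 (-112), H1f4 (-115), H1f5 (-117) and H1f3 (-122), and at -114 in H1f6, the gene of the testis linker histone H1t. It was not found in H1f1. A forward CCAAT lay between -51 and -56 in H1f1 to H1f5 and at -65 in H1f6. The 4 genes H1f2 to H1f5 are those that carried a wide peak over the gene end in every list, described with their values further on, whereas H1f1 and H1f6 carried none there.

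A second set shows an H2B promoter from the histone region with the highest 72 h score (a whole number that the authors deposited with each 48 h and 72 h peak, used here only to rank peaks within 1 list), and the pair of H4 promoters without any peak that are almost the same sequence. They lie at chr13:22035671-22035820 (+ strand) for H2bc12, chr13:21811596-21811745 (+ strand) for H4c17 and chr13:21832198-21832347 (- strand) for H4c18, with the same capitals.
H2bc12: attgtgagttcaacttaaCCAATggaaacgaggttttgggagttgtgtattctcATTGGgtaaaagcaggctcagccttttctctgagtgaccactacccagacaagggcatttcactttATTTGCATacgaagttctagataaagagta
H4c17: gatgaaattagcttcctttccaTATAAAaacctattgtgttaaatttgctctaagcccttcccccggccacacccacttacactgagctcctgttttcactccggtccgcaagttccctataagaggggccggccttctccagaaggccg
H4c18: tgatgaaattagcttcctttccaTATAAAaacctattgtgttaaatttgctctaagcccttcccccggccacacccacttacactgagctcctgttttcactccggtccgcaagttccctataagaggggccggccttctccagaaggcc

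H2bc12 held an octamer at -30 and CCAAT boxes at -132 and, on the other strand, at -96. The H4c17 and H4c18 windows held a TATAAA far upstream, at -128 and -127, and no CCAAT in the 300-base window. Of the 50-base runs in each of these 2 windows, 94.0% also occurred in another RefSeq promoter window.

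Over the 58 members with an entry in the promoter table, the 300-base window (250 bases before to 50 after the start) held CCAAT in 50 (86.2%, exact 95% interval 74.6 to 93.9%), compared with 39.0% of the windows of all 17492 protein-coding genes in the table. TATAAA was in 34 (58.6%, against 13.3% of all), ATTTGCAT in 12 (20.7%, against 1.71%) and AAACACA in 9 (15.5%, against 6.13%). No motif contains another. CCAAT was in every H1, H2A, H2B and H3 window but in 3 of 11 H4 windows. The octamer was in 6 of 17 H2A and 6 of 14 H2B windows and in none of the other families, and AAACACA was in 5 of 6 H1 windows. Windows of H2A and H2B genes with close starts on opposite strands overlap, so the same site can count for both genes. The octamer of H2ac8 and H2bc8 is such a site. The windows are thus not independent counts, and the interval does not allow for this. The median GC content of the histone windows was 45.3%, against 56.3% over all windows. Of the members, H3c7, H2bc4, H3c1, H2bc21 and H4c14 had no entry.

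The members lie on chromosomes 3 and 13, in 5 blocks more than 100 kb apart. Block 1 (chr3:96219885-96270192) holds 10 members and 12 regions, block 2 (chr13:21715711-21833475) 17 members and 16 regions, and block 3 (chr13:22035122-22043658) 5 members and 6 regions. Block 4 (chr13:23531044-23764412) is the largest, with 29 members and 43 regions. Block 5 (chr13:23933725-23934913) holds the testis genes H2bc1 and H2ac1 and no region. The 77 regions comprised 66 peaks in the naive list, 65 at 48 h and 57 at 72 h. Of the regions, 41 overlapped a promoter window of a member, 16 others covered the 3′ end of one, 9 others lay in a body and 11 lay outside the bodies.

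The farthest region that the limit of 2 kb admitted was R72 at chr3:96243981-96244096, 1401 bp from H2ac18, with a 72 h peak of 116 bp. The nearest that it left out was at chr13:22045800-22045972, 2142 bp from H2bc11, with a 72 h peak of 173 bp, followed by one 2444 bp from H4c3 with peaks of 366, 226 and 517 bp in naive, 48 h and 72 h cells.

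**Figure D1:**
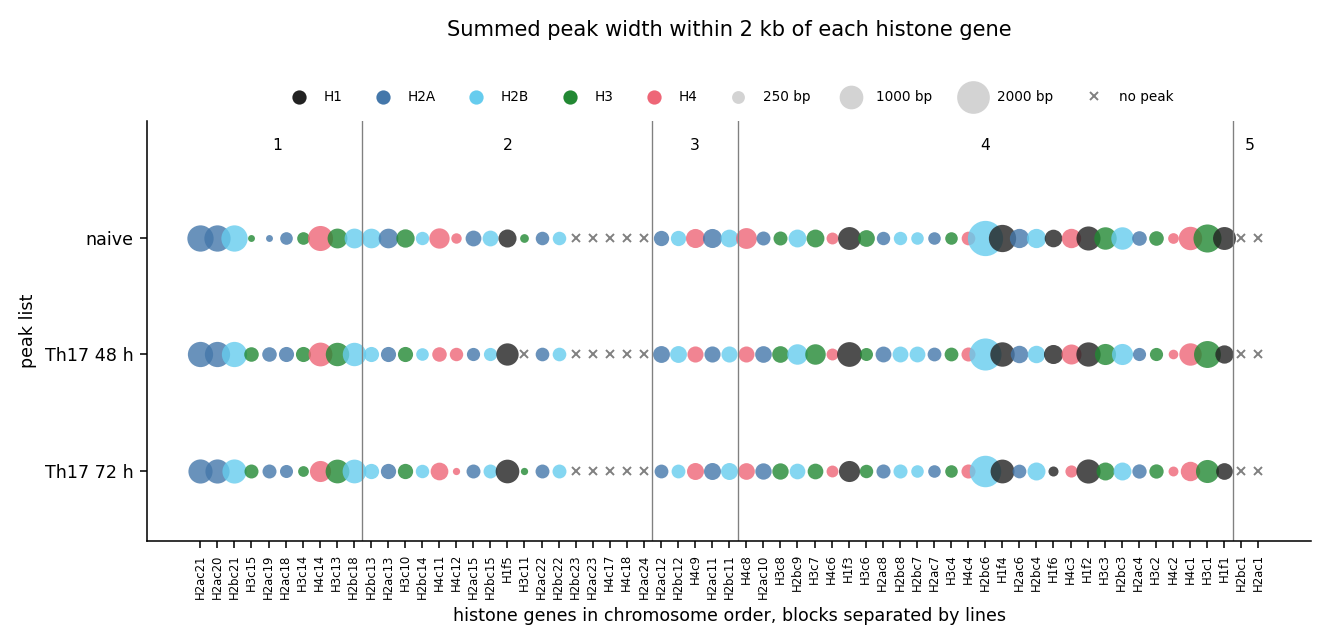
Each circle is 1 of the 63 histone genes (horizontal axis, chromosome order, numbered blocks between lines) in 1 peak list (vertical axis), its area is the summed width in bp of the peaks within 2 kb of the gene and its colour is the histone family. Crosses mark genes without a peak: 7 genes in each list and, at 48 h, also H3c11.

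The first comparison asks which histone genes are open in resting cells and which after Th17 culture. Most had a peak in every condition: 56 of 63 members had a peak within 2 kb in naive cells (88.9%, exact 95% interval 78.4 to 95.4%), 55 at 48 h (87.3%, 76.5 to 94.4%) and 56 at 72 h (88.9%). Over all 21900 protein-coding genes the shares were 63.7%, 63.9% and 67.8%. On the promoter window itself, 45, 44 and 46 of 58 members had a peak (77.6%, 75.9% and 79.3%), against 51.7%, 50.7% and 53.9% of all genes with a window. Intervals here and below cover counting error only. Neighbouring members share peaks, so genes are not independent counts.

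Of the 77 regions, 47 were in all 3 lists (61.0%, exact 95% interval 49.2 to 72.0%), against 25.6% of all regions. A further 9 were in naive cells only (11.7%, against 28.8% of all), 10 at 48 h only (13.0%, against 4.73%) and 2 at 72 h only (2.60%, against 18.3%). The remaining 9 were 3 in naive and 48 h, 3 in naive and 72 h and 3 in 48 h and 72 h cells, against 2.57%, 6.86% and 13.1% of all regions. Place on a promoter goes with presence in all lists. Of the 41 on a histone promoter window, 36 were in all 3 lists (87.8%), and over the 9717 regions on any protein-coding promoter window the share was 82.6%. Of the 36 histone regions off the promoter windows, 11 were in all 3 lists (30.6%), against 17.9% of the 71598 such regions in all. Regions at genes without a window count as off the windows unless they overlap a neighbour's window. Among the 11 are R31 at H3c7, R64 at H3c1 and R75 over H4c14, which may lie at starts.

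**Figure D2:**
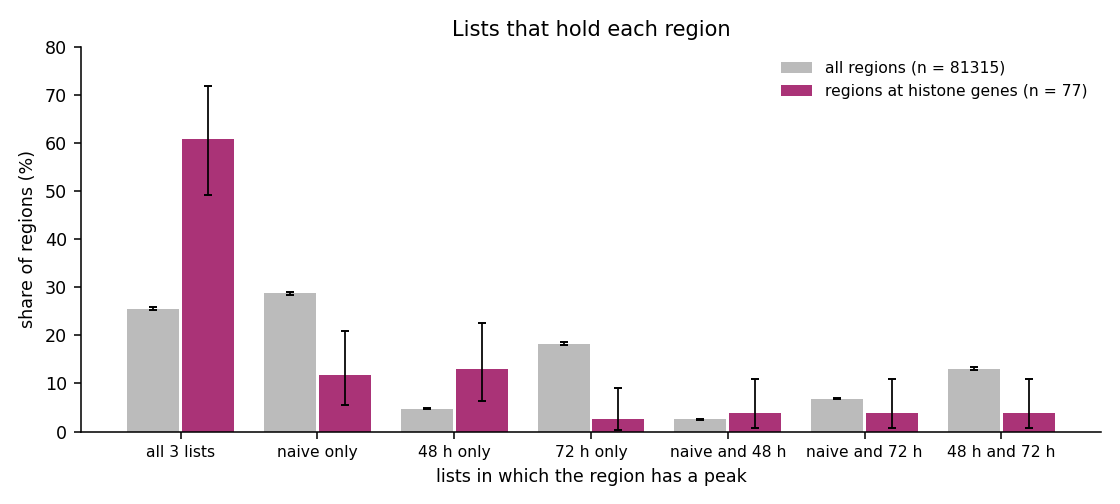
Bars give the share of regions (vertical axis, %) found in each combination of the 3 peak lists (horizontal axis), for all 81315 regions (grey) and the 77 at histone genes (purple), with exact 95% binomial intervals that cover counting error only. The histone bar is taller for regions in all 3 lists (61.0% against 25.6%) and for 48 h only (13.0% against 4.73%), and shorter for 72 h only (2.60% against 18.3%).

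Between naive and 48 h cells, 12 of 62 naive regions at histone genes had no 48 h peak and are called lost (19.4%, against 55.9% of all naive regions), and 13 of 63 regions at 48 h had no naive peak and are called gained (20.6%, against 38.8%). With equal numbers of peaks, the widest 40624 of each list, 4 were lost and 16 gained from naive to 48 h, and 19 were lost and 2 gained from 48 h to 72 h. Lost and gained describe the lists: a missing peak means only that none passed the authors' calling. From naive to 72 h, 12 of 62 were lost (19.4%, against 49.2%) and 5 of 55 gained (9.09%, against 49.2%). Both of these comparisons use the naive list. From 48 h to 72 h, 13 of 63 were lost (20.6%, against 15.9%) and 5 of 55 gained (9.09%, against 39.4%).

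On the promoter windows the counts were small and lay beside backgrounds of a few percent. From naive to 48 h, 3 of 39 were lost (7.69%, against 7.99% of all promoter regions) and 2 of 38 gained (5.26%, against 6.09%). From naive to 72 h, 0 of 39 were lost (against 5.19%) and 1 of 40 gained (2.50%, against 8.93%). From 48 h to 72 h, 1 of 38 was lost (2.63%, against 1.93%) and 3 of 40 gained (7.50%, against 7.71%). These shares are near the background of all promoters, and the histone genes do not stand apart in them.

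Off the promoter windows, 9 of 23 regions were lost from naive to 48 h (39.1%, against 65.7% of all regions off promoters) and 11 of 25 gained (against 48.6%). Between naive and 72 h cells, 12 of 23 were lost (52.2%, against 58.2%) and 4 of 15 gained (26.7%, against 57.8%). From 48 h to 72 h, 12 of 25 were lost (48.0%, exact 95% interval 27.8 to 68.7%, against 20.0%) and 2 of 15 gained (13.3%, 1.66 to 40.5%, against 46.2%). In that last pair of lists the histone share was above the background for losses and below it for gains. Regions at members without a promoter window are included in these counts.

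By gene, 42 of 58 members had a start peak (a peak on the promoter window) in all 3 lists, 72.4% against 47.5% of all genes with a window. The members without this pattern are few. H4c11, H4c12 and H3c11 had a start peak in naive and 72 h cells and none at 48 h. H1f5 had one at 48 h and 72 h and none in naive cells, and H3c4 had one at 48 h only. The other 11 had none in any list: H3c15, H2ac19, H3c14, H2bc23, H2ac23, H4c17, H4c18, H2ac24, H1f6, H2bc1 and H2ac1.

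H1f5 encodes a somatic linker histone of dividing cells, and its start was the one H1 start with a peak in some lists and not in others. Region R14 (chr13:21780153-21780693), from about 68 bases before the start to 472 bases into the gene, held a peak of 0 bp in naive cells, 540 bp at 48 h (score 107, percentile 72.6 of that list) and 540 bp at 72 h (score 91, percentile 58.6). The neighbouring end region of the same gene, R13, was present in all 3 lists with 690, 513 and 647 bp. Of all genes with a window, 2.29% shared this pattern of the lists.

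The start regions that lacked a 48 h peak belong to 3 genes of block 2, which encode H4 and H3. R7 at H4c11 (chr13:21734804-21735082) was 180 bp wide in naive cells and 279 bp at 72 h, with a 72 h score of 59 (percentile 36.5). R11 at H4c12 (chr13:21750408-21750638) was 231 and 111 bp wide, with a score of 60 (percentile 37.3), and R15 at H3c11 (chr13:21783358-21783519) 162 and 112 bp, with a score of 55 (percentile 32.5). All 3 were narrower than the median peak in the naive list (273 bp). At 72 h R11 and R15 were narrower than that list's median (239 bp), and R7 was wider. By score all 3 ranked in the lower part of the 72 h list. The 48 h list held the fewest peaks, and the part of that in these absences was not tested. Over the gene end, H4c11 had a peak in each list (268 bp and a score of 117 at 48 h) and H4c12 had one at 48 h only (120 bp, score 83), while H3c11 had no 48 h peak within 2 kb.

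Histone starts were often covered by a peak, and the peaks were narrow. At the start itself 72.4%, 72.4% and 77.6% of the 58 members were covered by a peak in naive, 48 h and 72 h cells, against 47.9%, 45.6% and 49.3% of all genes. At 200 bp into the gene the shares were 6.90%, 6.90% and 3.45%, against 38.9%, 30.9% and 38.6% of all genes, so the order was the reverse. The median width of a start peak was 333, 302 and 306 bp, against 701, 502 and 606 bp over all promoter peaks. At 700 bp, beyond the end of most core histone genes, the shares were 10.3%, 20.7% and 12.1%, against 11.5%, 5.81% and 8.35% of all genes.

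**Figure D3:**
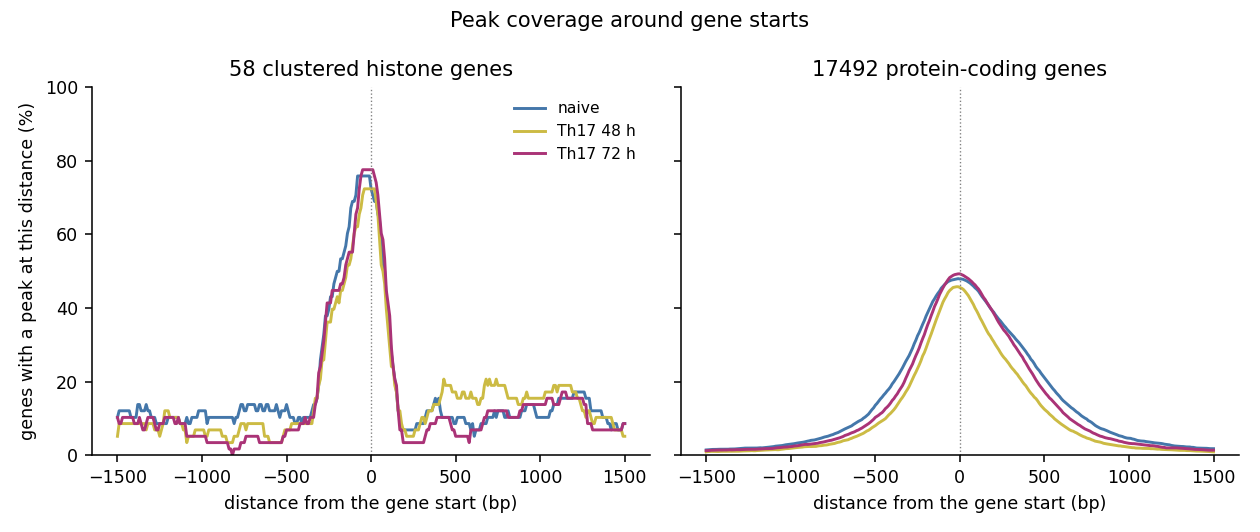
Lines give the share of genes covered by a peak (vertical axis, %) at each distance from the gene start (horizontal axis, bp, positive into the gene), for 58 histone genes (left) and 17492 protein-coding genes (right), 1 line per peak list. The histone lines reach 72.4% to 77.6% at the start and fall to 6.90% or less at 200 bp, where the lines of all genes are still at 30.9% to 38.9%.

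Shared start regions had similar median widths in the lists. From naive to 48 h, 25 of 36 shared start regions were narrower and 11 wider, with a median ratio of 0.925, while over all genes 83.7% were narrower and the median ratio was 0.781. From naive to 72 h, 26 of 39 were narrower and 13 wider (median ratio 0.955, against 0.899), and over all genes 70.0% were narrower. From 48 h to 72 h, 15 of 37 were narrower and 21 wider (1.03, against 1.15), and over all genes 25.1% were narrower. Widths depend on the depth and threshold of each list, and with 1 list per condition the spread between libraries is unknown.

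Over the whole gene with 2 kb on each side, the median summed peak width of members with a peak was 671 bp in naive cells, 549 bp at 48 h and 494 bp at 72 h. The median ratio over genes was 0.921 from naive to 48 h, 0.830 from naive to 72 h and 0.951 from 48 h to 72 h. The first ratio was 1.02 with equal numbers of peaks per list and 1.00 without the members longer than 2 kb, and the last exceeded 1 under 6 other settings. The naive to 72 h ratio stayed below 1 under each alternative, from 0.816 to 0.990. From naive to 72 h, 38 members had less peak width and 18 had more. The summed width was not computed over all genes. Region by region, 34 of 50 histone regions shared by the naive and 72 h lists were narrower at 72 h, against 68.7% of all shared regions. The median ratios were 0.941 and 0.861, so the histone genes do not stand apart by narrowing.

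The H1 family had the largest median summed peak width of the histone families. It was 1110, 1150 and 1064 bp over the 6 linker histone genes in naive, 48 h and 72 h cells. H1f5 went from 690 to 1053 and 1187 bp, through the start peak described above. H1f1, the gene of a linker histone known from the thymus, had 1112, 709 and 591 bp, and its start peak was 507, 471 and 326 bp wide. H1f4, which encodes H1.4, had 1574, 1261 and 1199 bp. H1f6 had 657, 769 and 214 bp, none of it closer than 1685 bp to its start, and its peaks lay at the neighbouring H4c3. H1f3 had 1108, 1295 and 940 bp and H1f2 had 1226, 1247 and 1233 bp. Between naive and 72 h cells, the width was larger at H1f5 and H1f2 and smaller at the other 4.

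H1f2, H1f3, H1f4 and H1f5, which encode somatic linker histones, had a peak over the 3′ end of the gene in every list, beside the start peak except in the naive H1f5, where it was the only peak. For H1f2 the end peak was 769 bp in naive cells, 997 bp at 48 h (score 163) and 968 bp at 72 h (score 213), and at 48 h it ran from 297 to 1293 bp after the start of a gene of 725 bp. For H1f3 it was 807, 1013 and 691 bp, with scores of 163 and 83 in the 48 h and 72 h lists. For H1f4 it was 584, 813 and 920 bp (scores 136 and 212), and for H1f5 690, 513 and 647 bp (scores 100 and 167). In all 12 cases the peak reached past the gene end, and in H1f2 to H1f4 it was wider than the start peak of the same gene in the same list. In H1f4 the region (R45, chr13:23620688-23622163) also holds a distal start of H2bc6, whose gene model spans 37455 bp.

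**Figure D4:**
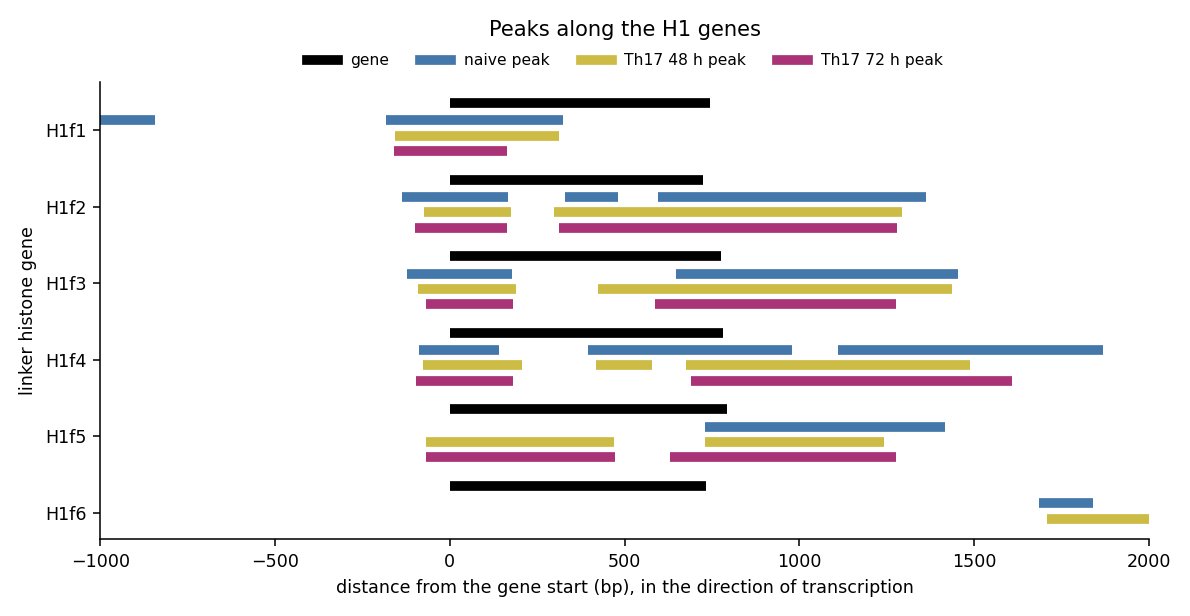
Bars show the 6 H1 genes (black) and the naive, 48 h and 72 h peaks (coloured) by distance from the gene start (horizontal axis, bp in the direction of transcription, drawn from -1000 to 2000). H1f2 to H1f5 have a wide peak over the gene end in each list, H1f1 and H1f6 have none there, and the H1f5 start has a peak in both Th17 lists and none in the naive list.

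End peaks were also seen in other families. Over the 58 members with a known strand, 11 had a peak over the 3′ end in naive cells (19.0%, exact 95% interval 9.87 to 31.4%), 14 at 48 h (24.1%, 13.9 to 37.2%) and 8 at 72 h (13.8%, 6.15 to 25.4%). Over all genes with a window the shares were 0.972%, 0.595% and 0.646%. Short genes are the nearer comparison, since their end lies close to the start. Among other protein-coding genes of at most 1000 bp with a start peak, 1 of 34, 1 of 32 and 1 of 35 had a peak over the end. Among members with a start peak the counts were 10 of 45, 10 of 44 and 8 of 46, and the end peak was separate from the start peak in 10, 9 and 7 of these. Some overlaps with an end were slight. At H3c14 the 48 h end peak began 663 bp after the start of a gene of 664 bp. At H3c15 it began 644 bp after the start of a gene of 649 bp. The 72 h peak at H3c15 began at 663 bp and was not counted.

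Among the H4 genes, 5 of 11 had an end peak in naive cells (H4c11, H4c9, H4c8, H4c4 and H4c3), 4 at 48 h (H4c11, H4c12, H4c4 and H4c3) and 3 at 72 h (H4c11, H4c8 and H4c4). H4c11 and H4c4 had one in each list. At H4c11 the region (R8, chr13:21735357-21735624) was 240, 268 and 234 bp wide. At H4c3 the end region (R51, chr13:23697496-23698171) held 440 bp of peaks in naive cells, 571 bp at 48 h and none at 72 h, which is the widest histone region absent from a list. H2A ends had a peak in 2 of 17 genes in naive cells and in none at 48 h or 72 h, and H2B ends in 0, 4 and 1 of 14.

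The 10 regions seen at 48 h only were 100 to 301 bp wide, beside a median of 234 bp over all 48 h peaks, with scores of 33 to 83. Of these, 5 lay at gene ends: R10 at H4c12 (chr13:21750097-21750216, score 83), R29 at H2bc9 (chr13:23542736-23542984, score 53), R37 at H2bc8 (chr13:23571824-23571950, score 33), R58 at H2bc3 (chr13:23747138-23747419, score 49) and R74 at H3c14 (chr3:96247348-96247552, score 33). The start of H3c4 held R39 (chr13:23575708-23575808, score 42, at percentile 17.1), named after its values were seen. The widest of the 10, R62 near H4c1 (chr13:23760018-23760318), had a score of 34, at percentile 4.95 of the 48 h list. R9 near H4c12 (chr13:21749628-21749889) had a score of 37 and R19 near H2bc12 (chr13:22036392-22036612) one of 41. The remaining 48 h region lay in the H2bc4 gene. The 48 h list had a median score of 69.0 and a lowest score of 30, and all of the 10 but R10 scored below that median.

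The 9 naive-only regions ranged from 101 to 253 bp in width. The widest was R56 between H3c3 and H2bc3 (chr13:23745932-23746184, 253 bp), followed by R3 at the end of H2ac13 (chr13:21716786-21716962, 177 bp), R44 inside H2bc6 (chr13:23598091-23598229, 139 bp), R66 before H2ac21 (chr3:96219263-96219392, 130 bp), R23 near H4c8 (chr13:23530378-23530492, 115 bp) and R1 near H2bc13 (chr13:21714884-21714989, 106 bp). R23 also lies at a lncRNA gene and a tRNA gene. None of the 9 lay on a promoter window. At 72 h only, R50 (chr13:23691977-23692260, 284 bp, score 74) lay in the H2bc4 body and R72 near H2ac18 had a score of 74.

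Other regions missing from 1 list lay off the starts. R48 in the H2bc4 gene (chr13:23684592-23684983) had 382 bp in naive cells and 134 bp at 48 h (score 90), and R68 in H2ac21 (chr3:96220140-96220324) had 119 and 185 bp (score 73), both without a 72 h peak. R70 at the end of H3c15 (chr3:96238036-96238483) had no naive peak and 448 and 414 bp at 48 h and 72 h (scores 94 and 72). R27 between H2ac10 and H3c8 (chr13:23534899-23535055) had no naive peak and 157 and 122 bp (scores 35 and 40).

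H2A and H2B genes often stand head to head, so that 1 stretch of DNA serves both starts. Among genes with a promoter window there were 9 such pairs with starts at most 500 bp apart. H2bc4 and H2bc21, which neighbour H2ac6 and H2ac20, have no window and could not be counted. In 7 of them a single peak covered both starts in each list: H2bc13 with H2ac13, H2ac15 with H2bc15, H2ac22 with H2bc22, H2ac12 with H2bc12, H2ac11 with H2bc11, H2ac8 with H2bc8 and H2bc7 with H2ac7. Their starts lie 164 to 249 bp apart. Naive peak widths ran from 333 to 529 bp, 48 h widths from 302 to 406 bp and 72 h widths from 334 to 419 bp. The other 2 pairs, H2bc23 with H2ac23 (168 bp apart) and H2bc1 with H2ac1 (281 bp apart), had no peak in any list.

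Starts of H2A, H2B and H3 genes held the highest 72 h scores. The start peak of H2ac12 and H2bc12 (R18, chr13:22035507-22035913) had the highest 72 h score of the 77 regions, 402, percentile 99.5 of that list, and was 394, 382 and 404 bp wide. It was followed by R35 at H3c6 (chr13:23562299-23562891, score 318), R28 at H3c8 (chr13:23535126-23535466, 312), R16 at H2ac22 and H2bc22 (chr13:21787174-21787590, 296) and R30 at H2bc9 (chr13:23543312-23543658, 275). The lowest were R26 at H2ac10 (chr13:23533774-23533920, score 30), R41 at the end of H4c4 (chr13:23581847-23582119, 31), R27 (40), R21 at H4c9 (chr13:22041242-22041519, 46) and R15 at H3c11 (55). H2ac10, with the lowest score, is an H2A gene outside the 9 pairs.

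By family, the median score percentile of start peaks in the 48 h list was 87.6 for H1, 74.9 for H2A, 82.1 for H2B, 68.0 for H3 and 49.9 for H4. In the 72 h list the medians were 80.1, 87.7, 88.8, 70.9 and 62.8. All promoter peaks had medians of 79.9 and 83.9, and all histone start peaks 75.4 and 79.6. All 13 H2B start peaks were in the top 25% of the 72 h list, where 65.3% of all promoter peaks lay, against 2 of 9 H4 start peaks. The H4 family was thus lowest in both lists, and H1 and H2B were above the median of all promoter peaks in the 48 h list. Each family has 5 to 13 peaks, paired genes share theirs, and the order has no replicate check.

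**Figure D5:**
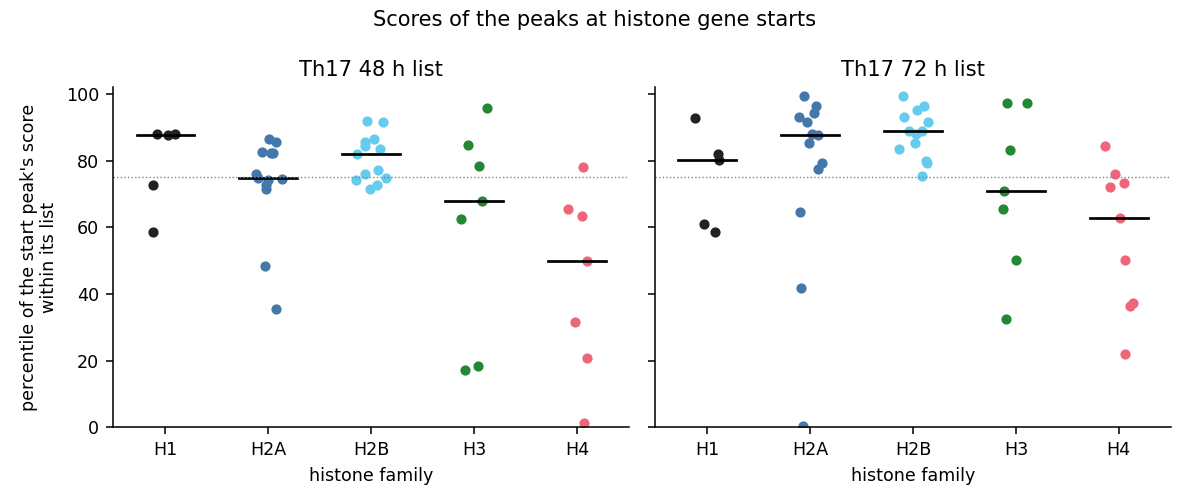
Points are peaks on a promoter window of a histone gene, placed by family (horizontal axis) and by the percentile of their score among all peaks of the same list (vertical axis), at 48 h (left) and 72 h (right). Black bars are medians, the dotted line is the 75th percentile, a peak shared by an H2A and an H2B gene is drawn in both families, and all 13 H2B peaks lie above the line at 72 h.

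Within the core histone families, the members whose summed width differed most between lists did not move one way. Among H2A genes, H2ac6 had 786, 646 and 400 bp in naive, 48 h and 72 h cells, H2ac13 had 818, 486 and 494 bp, and H2ac19 had 101, 448 and 414 bp. H2ac20 and H2ac21, which share all their peaks, had 1464, 1349 and 1235 bp. All but H2ac19 were highest in naive cells, and H2ac19 was lowest there.

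Among H2B genes, H2bc6 had 2631, 2180 and 2100 bp over a gene model of 37455 bp, H2bc3 had 1067, 944 and 681 bp, and H2bc9 had 676, 888 and 521 bp. H2bc18, whose start peak (region R77, chr3:96269308-96270331) also covered the gene end at 48 h and 72 h, had 833, 1162 and 1195 bp, and its start peak was 655, 975 and 1024 bp wide. H2bc18 was the one of these 4 H2B genes with its lowest value in naive cells. Its start peak had scores of 183 and 214, at percentiles 92.0 and 89.0 of the 48 h and 72 h lists.

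Among H3 genes, H3c1 had 1667, 1535 and 1127 bp, H3c3 had 1067, 944 and 681 bp, sharing regions with H2bc3, and H3c7 had 676, 888 and 521 bp, sharing those of H2bc9. H3c13 had 833, 1162 and 1195 bp through the neighbouring H2bc18 peak, while its own start peak was 178, 187 and 171 bp. Among H4 genes, H4c3 had 796, 848 and 314 bp, H4c11 had 872, 447 and 663 bp, H4c14 had 1331, 1200 and 943 bp and H4c8 had 918, 544 and 589 bp. Each of these 4 H4 genes had less peak width at 72 h than in naive cells. At 2 kb on each side, such values count the peaks of neighbours, and the gene behind a peak cannot be told apart where genes lie this close.

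The 7 members without any region fall in 2 places. H2bc23, H2ac23, H4c17, H4c18 and H2ac24 lie together in block 2, in a stretch without a peak of 129647 bp in naive cells, 67601 bp at 48 h and 67694 bp at 72 h. The stretch holds 6 protein-coding genes, and the other one is H4bc24 (older symbol Hist1h2br), whose symbol in the table falls outside the naming rule. H2bc1 and H2ac1, the testis genes of block 5, lie in stretches of 382579, 330938 and 187150 bp. Of all gaps between peaks, 11.3% in the naive list, 17.1% at 48 h and 12.7% at 72 h were at least 60 kb long.

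The block 2 genes without a region are near copies of other histone genes. Counting 50-base runs of the promoter window that also occur in another RefSeq promoter window, the shares were 100% for H2bc23, which is identical to the window of H4bc24, 86.9% for H2ac23, 94.0% for H4c17 and H4c18 and 73.3% for H2ac24. In block 1, the starts of H3c15 and H3c14 (74.1% each) and H2ac19 (67.7%) also had no peak. Of the 11 members without a start peak in any list, 8 had such runs, and of the 47 with a start peak in some list, 3 had them: H2ac18 (67.7%), H4c11 and H4c12 (11.6% each). The other 3 without a start peak, H1f6, H2ac1 and H2bc1, had none, and all 3 encode testis histones. Over other protein-coding genes, 9.94% had any such run. Reads from copies can be dropped or split by an aligner, the sources used here do not say how the authors treated them, and the part of this in the missing peaks was not tested.

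The genes that serve the histone genes were counted from lists taken from textbook roles. The list for histone mRNA transcription and 3′ processing has 18 genes and 53 regions. Of these regions, 29 were in all 3 lists (54.7%, against 25.6% of all regions). The 15 of the 18 genes with a promoter window had a start peak in each list, as did 47.5% of all genes with a window. Between naive and 48 h cells, 0 of 30 regions were gained (against 38.8% of all regions) and 15 of 45 lost (33.3%, against 55.9%). By 72 h, 8 of 37 were gained over the naive list (21.6%) and 16 of 45 lost (35.6%), against 49.2% for both. Npat, the transcription coactivator of histone genes, and Slbp, the stem-loop binding protein, each went from 3 regions to 1 at 48 h and 1 at 72 h. Pou2f1, which encodes the octamer-binding factor Oct-1, went from 8 to 4 and back to 8, with 4 of the 72 h regions absent from naive cells. Eri1, an exonuclease of histone message ends, went from 3 to 1 and 3, Cpsf2 had 2 in each list with 1 gained and 1 lost from naive to 72 h, and Cpsf3, the processing endonuclease, had 3, 3 and 4.

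The 14 histone chaperone genes had 35 regions, 19 of them in all 3 lists (54.3%, against 25.6% of all regions). At 48 h, 5 of 26 were gained over the naive list (19.2%, against 38.8% of all regions) and 8 of 29 lost (27.6%, against 55.9%), and from naive to 72 h 5 of 24 were gained (20.8%) and 10 of 29 lost (34.5%), against 49.2% for both. Chaf1b, a subunit of the CAF-1 complex that deposits H3 and H4 behind the replication fork, went from 5 regions to 2 and 2. Hira, which deposits the variant H3.3, went from 2 to 3 and 4. Nasp, a chaperone of H1 and H3, went from 2 to 2 and 1, Asf1b from 2 to 2 and 1, Daxx from 3 to 3 and 2, and Supt16, a subunit of FACT, had 3 in each list with 1 gained and 1 lost from naive to 48 h.

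The 12 genes of replication-independent histone variants had 27 regions, 14 of them in all 3 lists (51.9%, against 25.6% of all regions). At 48 h, 3 of 17 regions were gained over the naive list (17.6%, against 38.8% of all regions) and 4 of 18 lost (22.2%, against 55.9%). At 72 h, 9 of 24 were gained over the naive list (37.5%, against 49.2% of all regions) and 3 of 18 lost (16.7%, against 49.2%). Between 48 h and 72 h cells, 7 of 24 were gained (29.2%, against 39.4%) and 0 of 17 lost (against 15.9%). Each of these gained and lost shares was below that of all regions. The regions of the 3 related gene lists were not split by place. Of all regions on a protein-coding promoter window, 82.6% were in all 3 peak lists. Macroh2a2, which encodes a macroH2A variant, went from 0 to 0 and 3 regions, and H1f10, a replication-independent linker histone, from 0 to 1 and 3. H2az1, the gene of H2A.Z, had 4, 3 and 5 regions, H2az2 1, 2 and 2, Macroh2a1 3, 2 and 2 and H2aj 3, 2 and 2. Both genes with the largest gains had no start peak in naive cells or at 48 h and 1 at 72 h. The clustered histone genes had 5 regions gained from 48 h to 72 h and 13 lost, and the difference between these lists was not tested.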

How the data were processed

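ATAC-seq peak lists of naive CD4 T cells and of Th17 cells at 48 h and 72 h were analysed, 1 list per condition, grouped by the labels. Per the submitters' processing notes, Bowtie2 2.3.4.1 and MACS2 2.2.6 were used beside SAMtools 1.9 and deepTools, on GRCm38, which is also called mm10. Not given in the sources used here are the calling threshold, duplicate handling, filters and any Tn5 shift. The deposited lists hold peak positions, taken as BED and printed 1-based. A score per peak was deposited with the Th17 lists, on a scale that is not stated, and was used within a list only. The naive list has no score, and 1 line of it without values was left out.

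From the lists, merged regions, peak widths and overlaps of at least 1 bp with gene bodies (2000 bp flanks) and RefSeq promoter windows were computed. Motif matches and shared 50-base runs in those windows were computed as well (Python 3.11.15, numpy 2.4.6, scipy 1.17.1, matplotlib 3.10.9). Only the merging of peaks and the region classes were tested on simulated peak lists. A peak score percentile is the share of the list with a lower score, ties counted by their middle rank. Without counts or replicate lists no test across libraries was possible, and shares have exact Clopper-Pearson 95% intervals. Members and gene lists were chosen with earlier results of these data known. Named genes were those without a region in a list, the 4 per family with the largest range of summed width (ties kept), the 5 highest and 5 lowest 72 h scores, the 25 widest regions absent from a list and up to 6 changed genes per related list. Flanks, peak filters, merging rules and width measures were varied. Some marker genes are not reported here.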

Additional observations from a re-analysis of the deposited data

How the results depend on the processing

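Of 110 values from alternative settings, 86 lay within a factor of 1.5 of the reported value, width ratios also on the same side of 1. Another 16 lay beyond that factor, and 8 width ratios crossed 1. Read depth is unknown, and each absence depends on the authors' threshold. No paired analysis was possible because the replicate numbers belong to libraries and there is 1 list per condition, and leaving out a replicate was not possible for the same reason. The share of histone regions in all 3 lists ran from 55.9% (10 kb flanks) to 69.2% (no flanks) and stayed above that of all regions under each setting. Counts of regions moved most. From naive to 48 h, lost regions numbered 7 without flanks and 20 with flanks of 10 kb (55.9% over all regions at either flank). They numbered 4 with the widest 40624 peaks of each list (47.2% over all regions) and 3 at or above the median width (51.3%). From naive to 72 h, lost regions numbered 7 without flanks, 19 with 10 kb and 5 at or above the median width. The shares of all regions lost were 49.2%, 49.2% and 42.8%. Gained regions numbered 3 without flanks and 3 with equal numbers, where 49.2% and 47.1% of all regions were gained. From 48 h to 72 h, lost regions numbered 8 at or above the median width and 7 at or above the median score. Of all regions, 13.2% and 14.5% were lost there. Gained regions numbered 9 with 10 kb, 2 with equal numbers and 3 under either median. The shares of all regions gained were 39.4%, 28.7%, and 36.3% (width) or 36.4% (score). At or above the median width 48 regions remained at histone genes. The median width ratio from 48 h to 72 h turned to 1.02 without flanks, 1.01 with flanks of 500 bp, 1.04 at or above the median width, and 1.02 at or above the median score, by the widest peak per gene and by covered bases of the body. From naive to 48 h it turned to 1.02 with equal numbers and 1.00 without the 5 members longer than 2 kb, the latter a setting chosen after seeing the data. The cause was not tested.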
